A study of Mus musculus with 10 samples.

Results

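The genes studied here are 10 genes of the cardiac lipid droplet and of triglyceride turnover, *Plin2*, *Plin3*, *Plin4*, *Plin5*, *Dgat1*, *Dgat2*, *Pnpla2*, *Abhd5*, *G0s2* and *Lipe*, taken by symbol from the 29564 genes of the deposited tables. All 10 were listed, and all 10 were among the 13296 genes tested. They were measured by RNA sequencing of left ventricular tissue from 5 control mice (TT-583 to TT-587) and from 5 mice of the HFD+mTAC group (TT-588 to TT-592), the study's model of heart failure in which the ejection fraction is preserved. All were wild-type mice, C57BL6 in the labels and male C57BL/6J in the study's methods. HFD+mTAC mice underwent moderate transverse aortic constriction (mTAC), a partial narrowing of the aorta against which the left ventricle must pump, at 11 weeks of age and were then kept on a high-fat diet (HFD) with 60% of kilocalories from fat, whereas control mice had no constriction and were fed chow with 10% of kilocalories from fat. Every mouse is labelled as given vehicle, a mixture of DMSO, PEG-300 and water, for which the labels give a volume of 10 mL/kg once per day over 6 to 9 weeks. Mice with the diet alone or the constriction alone were not analysed here, so that the effects of diet and pressure load cannot be told apart.

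Heart muscle burns fatty acids and stores a small reserve of them as triglyceride in lipid droplets. DGAT enzymes add the last fatty acid to make triglyceride, perilipins coat the droplet and control access to it, and ATGL (encoded by *Pnpla2*) removes the first fatty acid, helped by its co-activator CGI-58 (*Abhd5*) and held back by *G0s2*. Hormone-sensitive lipase (*Lipe*) then acts on the diglyceride. Several of these genes, *Plin2*, *Plin5* and *Pnpla2* among them, are known targets of the nuclear receptor PPARα, which fatty acids activate.

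Each library held 34.2 to 53.7 M estimated counts, of which mitochondrially encoded genes took 43.8 to 52.7% and the genes tested received 12.6 to 21.1 M. In a comparison of HFD+mTAC with control mice with edgeR's quasi-likelihood test, 8 of 13296 genes (0.0602%) had an adjusted p under 0.05. Of these, 6 (0.0451%) were higher in HFD+mTAC mice and 2 (0.015%) were lower. At an unadjusted p under 0.05 the count was 1099 (8.27%). The tissue was checked against cell type markers. All 8 cardiomyocyte markers had lower values in HFD+mTAC mice, with a median log2 fold change of -0.21 against 0.001 over all genes tested. None of the 8 was called by edgeR, DESeq2 or limma, 2 had an unadjusted p under 0.05 in edgeR's test, and their summed TPM (abundance corrected for transcript length and scaled within each mouse) was 19189 to 24375 in control mice and 16830 to 20365 in HFD+mTAC mice. In bulk tissue, fewer cells of a type and less RNA per cell cannot be told apart. Whether the lower cardiomyocyte markers have a part in the values below was not tested. None of the fibroblast, endothelial, macrophage, smooth muscle, red cell or atrial markers tested was called by any of these tools, nor had any an unadjusted p under 0.05 in edgeR's test. Levels of a gene are given as CPM, counts scaled to a common library size.

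None of the 10 genes was called by edgeR at an adjusted p under 0.05, where 0.0602% of all genes were. DESeq2, which called 0.888% of all genes, called *Pnpla2*, and limma called none of the 10. By direction, 8 of the 10 genes had a higher fitted level in HFD+mTAC mice and 2 had a lower one, whereas 50.3% of all genes tested were higher and 49.7% lower, and the median log2 fold change of the 10 genes was 0.19. An unadjusted p under 0.05 was found for *Pnpla2* and *Dgat2*, 2 of 10 genes, against 8.27% of all genes. The groups did not overlap in normalised counts for *Pnpla2* alone, against 1.96% of all genes. These counts are descriptions, since the genes were chosen with earlier results of the same mice known.

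**Figure D1:**
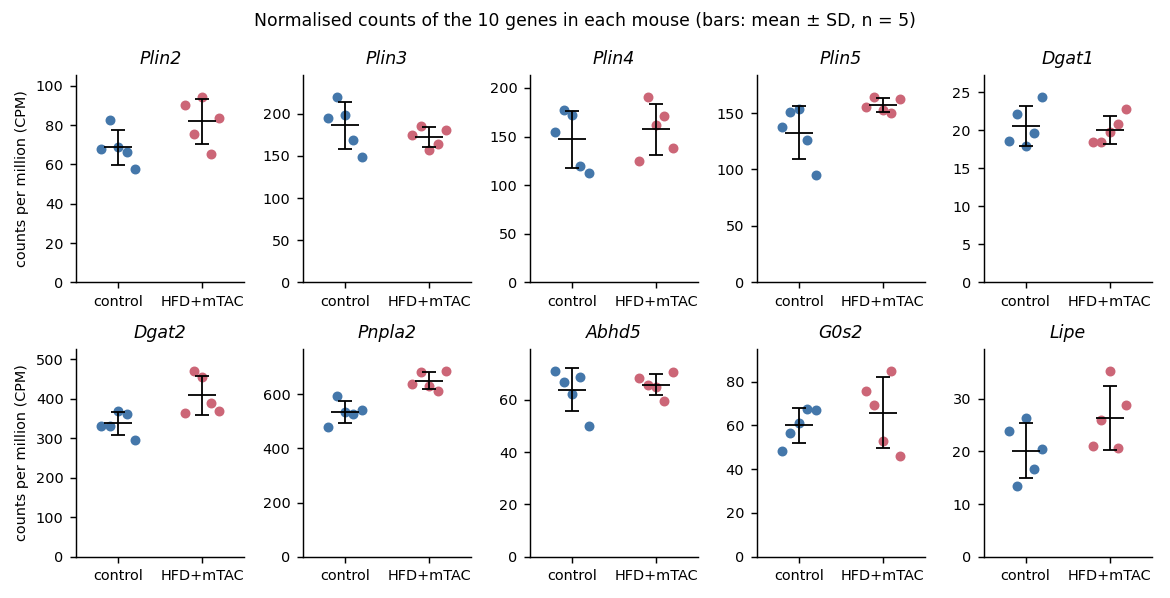
Normalised counts (CPM, vertical axes from 0) of each of the 10 genes in 5 control mice (blue) and 5 HFD+mTAC mice (red), each point 1 mouse, with bars for mean ± SD (n = 5). The *Pnpla2* panel shows no overlap between the groups, with 478 to 592.2 CPM in control mice and 613 to 685 CPM in HFD+mTAC mice, and each of the other 9 panels shows overlap.

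The perilipins are the droplet coat. *Plin2*, a coat protein that is found on droplets in most tissues and is degraded when not bound to a droplet, lies on the minus strand of chromosome 4 from 86648386 to 86670060 (GRCm38). Its level was 68.1, 82.5, 69.1, 66.3 and 57.5 CPM in controls TT-583 to TT-587 and 90.4, 75.3, 94.4, 65.4 and 83.7 CPM in the HFD+mTAC hearts TT-588 to TT-592. HFD+mTAC mice TT-588, TT-590 and TT-592 lay above all control mice, while TT-589 and TT-591 lay within their range. The log2 fold change was 0.25 (standard error 0.12, 95% interval from -0.00095 to 0.50), and the adjusted p was 0.603 in edgeR's test.

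*Plin5*, the perilipin of oxidative tissues such as heart, which tethers droplets to mitochondria and restrains lipolysis at rest, was at 137, 151, 153, 126 and 95.5 CPM in the control mice and 156, 164, 153, 149.8 and 163 CPM in the HFD+mTAC mice, in the same order of mice. The HFD+mTAC mice lay close together. HFD+mTAC mice TT-588, TT-589 and TT-592 lay above all control mice, and TT-590 and TT-591 lay within the upper end of the control range. The mean of *Plin5* was 157 ± 6.29 CPM (SD, n = 5) in HFD+mTAC mice against 133 ± 23.4 CPM (SD, n = 5) in control mice. Its log2 fold change of 0.24 (standard error 0.11, 95% interval from -0.0056 to 0.49) had an adjusted p of 0.61 in edgeR's test, and without control mouse TT-587, the lowest, it was 0.15.

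*Plin3*, which moves between the cytosol and new droplets, went the other way by value. It was at 195, 220.0, 199, 169 and 148 CPM in controls TT-583 to TT-587 and at 174, 186, 157, 164 and 181 CPM in the HFD+mTAC hearts TT-588 to TT-592, all of which lay inside the control range. The log2 fold change was -0.11 (standard error 0.11, 95% interval from -0.34 to 0.12), with an adjusted p of 0.849 in edgeR's test. Without control mouse TT-584, the highest, it was -0.04, and without control mouse TT-587, the lowest, it was -0.18.

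*Plin4*, a long perilipin of adipose tissue and striated muscle, was at 155, 177, 172, 119.9 and 113 CPM in the control mice and 124, 191, 162, 171 and 138 CPM in the HFD+mTAC mice. Both groups held high and low mice, and the log2 fold change was 0.09 (standard error 0.15, adjusted p = 0.92 in edgeR's test). With 1 mouse left out it ran from 0.0081 without HFD+mTAC mouse TT-589 and 0.013 without control mouse TT-587 to 0.17 without control mouse TT-584 or HFD+mTAC mouse TT-588. *Plin1*, the perilipin of fat cells, was at 0 counts in 9 mice and at 1 count in HFD+mTAC mouse TT-589.

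*Plin3*, *Plin4* and *Plin5* are neighbours on the minus strand of chromosome 17. *Plin4* lies from 56100591 to 56109803, *Plin5* from 56111601 to 56117596 and *Plin3* from 56277476 to 56292873, so that 1797 bases separate *Plin4* from *Plin5* and 160.0 kilobases separate *Plin5* from *Plin3*. The annotation places *Hdgfl2* across *Plin4* on the other strand, and the library kit keeps strand. The promoter windows of *Plin5* and *Plin3* are printed here because these neighbours had fitted changes of opposite sign, neither of which passed the test, with that of *Plin2* as the third perilipin for comparison. Each window holds 300 bases, from 250 before the transcript start to 50 after it, from RefSeq on GRCm38.p6, read 5′ to 3′ on the minus strand. The *Plin5* window is chr17:56117499-56117798, the *Plin3* window chr17:56290462-56290761 and the *Plin2* window chr4:86670010-86670309. The whole *Plin3* window lies inside the span of *Plin3* given above, downstream of the 5′ end of that span at 56292873. Capitals mark every match on either strand to 1 of 7 motifs that were searched.
Plin5: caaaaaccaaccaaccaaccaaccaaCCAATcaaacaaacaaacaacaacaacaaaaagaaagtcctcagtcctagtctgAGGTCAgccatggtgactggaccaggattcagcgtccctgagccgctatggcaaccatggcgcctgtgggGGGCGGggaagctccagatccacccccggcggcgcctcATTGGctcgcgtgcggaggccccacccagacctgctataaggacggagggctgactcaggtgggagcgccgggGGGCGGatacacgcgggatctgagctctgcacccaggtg
Plin3: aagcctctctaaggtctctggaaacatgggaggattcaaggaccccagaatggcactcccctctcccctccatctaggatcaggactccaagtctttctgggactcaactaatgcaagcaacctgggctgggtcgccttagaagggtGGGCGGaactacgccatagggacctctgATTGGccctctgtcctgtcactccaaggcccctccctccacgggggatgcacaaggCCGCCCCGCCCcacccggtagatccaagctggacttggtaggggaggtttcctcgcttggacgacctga
Plin2: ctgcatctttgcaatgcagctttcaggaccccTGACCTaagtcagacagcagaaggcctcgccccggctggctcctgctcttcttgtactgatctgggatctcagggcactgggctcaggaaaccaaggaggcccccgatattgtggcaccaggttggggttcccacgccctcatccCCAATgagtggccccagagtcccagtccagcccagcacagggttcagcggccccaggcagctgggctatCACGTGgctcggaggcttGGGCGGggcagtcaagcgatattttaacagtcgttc

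The first motif was AGGTCA, which reads TGACCT on the other strand and is the core that nuclear receptors such as the PPARs bind. The second was the direct repeat of that core with 1 base between the copies, which PPAR and RXR bind as partners and which contains the first. The others were the GC box, spelled GGGCGG and read as CCGCCC on the other strand, the CCAAT box, read as ATTGG on the other strand, the E-box spelled CACGTG, the TATA box spelled TATAAA and the core of FOXO sites spelled TGTTTAC. The *Plin5* window holds 1 AGGTCA from -170 to -165 before the start, with 2 GC boxes and 2 CCAAT boxes, and a second annotated *Plin5* window further downstream holds 1 AGGTCA too. The *Plin2* window holds 1 AGGTCA on the other strand from -218 to -213, 1 GC box, 1 CCAAT box and 1 E-box that spans the start. The *Plin3* window holds 3 GC boxes, of which the last 2 share 1 base, and 1 CCAAT box. Of the genes whose windows are not printed, *Abhd5*, whose fitted log2 change was 0.04, has 1 AGGTCA on the other strand from -69 to -64, so that the core was found in windows of *Plin2*, *Plin5* and *Abhd5*. It was found in 16.3% of all 32851 RefSeq mouse promoter windows of this length, the GC box in 35.7%, the CCAAT box in 37.4%, the E-box in 7.15%, the TATA box in 13.6% and the FOXO core in 3.65%. The direct repeat was found in 0.0396% of windows and in none of the 10 windows of 8 of the genes. A match describes letters in a window, not a bound site.

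Triglyceride synthesis ends with the DGAT step, which *Dgat1* and *Dgat2* catalyse with enzymes of unrelated sequence. *Dgat2*, on the minus strand of chromosome 7 from 99153658 to 99182719, was at 332, 331, 369.7, 360.2 and 296 CPM in the control mice and at 363, 469.7, 454, 389 and 369.6 CPM in the HFD+mTAC mice. HFD+mTAC mice TT-589, TT-590 and TT-591 lay above all control mice, and TT-588 and TT-592 lay within the upper end of the control range. The means were 338 ± 29.0 CPM (SD, n = 5) and 409 ± 49.3 CPM (SD, n = 5), a log2 fold change of 0.28 (standard error 0.10, 95% interval from 0.06 to 0.49) with an adjusted p of 0.443 in edgeR's test.

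*Dgat1*, on the minus strand of chromosome 15 from 76502015 to 76511953, was at 18.6, 22.1, 18.0, 19.7 and 24.4 CPM in the control mice and 18.5, 18.4, 19.8, 20.8 and 22.8 CPM in the HFD+mTAC mice. The groups lay on top of each other, with a fitted log2 change of -0.03 (standard error 0.11, 95% interval from -0.27 to 0.21, adjusted p = 0.965 in edgeR's test) whose sign changed with the processing. *Dgat2* exceeded *Dgat1* in every mouse. In TPM the ratio of *Dgat2* to *Dgat1* was 2.41 to 3.47 in control mice and 2.93 to 4.58 in HFD+mTAC mice, and in CPM per kilobase of annotated transcript it was 10.1 to 17.2 and 13.5 to 21.3, so that the groups overlapped on both scales.

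Lipolysis starts with *Pnpla2*, which lies on the plus strand of chromosome 7 from 141455198 to 141460743. It was the most abundant of the 10 genes and stood above 98.3% of the genes tested in mean CPM. Its level was 478, 592.2, 535, 527 and 542 CPM in controls TT-583 to TT-587 and 636, 681, 632, 613 and 685 CPM in the HFD+mTAC hearts TT-588 to TT-592. Every HFD+mTAC mouse exceeded every control mouse, and the nearest were control mouse TT-584 and HFD+mTAC mouse TT-591. The means were 535 ± 40.7 CPM (SD, n = 5) and 649 ± 32.0 CPM (SD, n = 5), and the log2 fold change was 0.28 (standard error 0.08, 95% interval from 0.11 to 0.45).

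For *Pnpla2*, edgeR's test gave an adjusted p of 0.294 over all genes, while DESeq2 gave an adjusted p of 0.0387. With 1 mouse left out in turn, its log2 fold change stayed between 0.24 and 0.32 and its adjusted p in edgeR's test between 0.317 and 0.64. Over its 10 other settings the adjusted p was 0.0387 to 0.81. In TPM the groups overlapped, with 43.5 to 112 TPM in control mice and 51.4 to 172 TPM in HFD+mTAC mice. The promoter window is printed because *Pnpla2* was the gene whose groups separated in CPM. It is chr7:141454938-141455237 on the plus strand of GRCm38.p6, from RefSeq, with 2 GC boxes in capitals, 1 of them on the other strand, and no match to the other 6 motifs.
Pnpla2: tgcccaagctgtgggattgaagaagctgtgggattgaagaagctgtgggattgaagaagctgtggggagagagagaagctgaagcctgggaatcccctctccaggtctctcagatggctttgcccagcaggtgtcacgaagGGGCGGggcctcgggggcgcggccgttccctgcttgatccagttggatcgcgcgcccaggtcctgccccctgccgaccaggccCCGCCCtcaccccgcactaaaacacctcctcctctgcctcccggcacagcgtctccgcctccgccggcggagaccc

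*Abhd5*, the co-activator of ATGL, on the plus strand of chromosome 9 from 122351608 to 122381524, was at 71.0, 67.0, 62.4, 68.6 and 50.2 CPM in the control mice and 68.3, 65.6, 65.1, 59.7 and 70.7 CPM in the HFD+mTAC mice. All HFD+mTAC mice lay inside the control range, and the log2 fold change was 0.04 (standard error 0.10, 95% interval from -0.17 to 0.25, adjusted p = 0.943 in edgeR's test). Without control mouse TT-587, the lowest, it was -0.03. The annotated antisense gene *A730085K08Rik* overlaps *Abhd5*.

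*G0s2*, which binds ATGL and inhibits it, is a short gene on the minus strand of chromosome 1 from 193272161 to 193273217, where the annotation has *Lamb3* on the other strand. It was at 48.3, 56.5, 61.3, 67.5 and 67.2 CPM in the control mice and at 75.9, 69.5, 53.1, 84.8 and 46.1 CPM in the HFD+mTAC mice. HFD+mTAC mice TT-588, TT-589 and TT-591 lay above all control mice and TT-592 lay below them all. The spread of the HFD+mTAC mice was the largest of the 10 genes, with a coefficient of variation of 24.3% against 13.4% in control mice. The log2 fold change of 0.13 (standard error 0.16) had an adjusted p of 0.895 in edgeR's test, and it was 0.02 without HFD+mTAC mouse TT-591, the highest, and 0.24 without TT-592, the lowest.

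*Lipe*, on the minus strand of chromosome 7 from 25379527 to 25398710, had the lowest level per length of the 10 genes. Its level was 23.8, 13.5, 26.3, 16.6 and 20.5 CPM in the control mice and 20.95, 26.0, 35.2, 20.6 and 28.7 CPM in the HFD+mTAC mice. HFD+mTAC mice TT-590 and TT-592 exceeded all control mice, and control mice TT-584, TT-586 and, by a narrow margin, TT-587 lay below all HFD+mTAC mice. Its log2 fold change of 0.38 had a standard error of 0.20, a 95% interval from -0.04 to 0.81 and an adjusted p of 0.657 in edgeR's test, and it was 0.25 without HFD+mTAC mouse TT-590, the highest. The antisense gene *4732471J01Rik* overlaps *Lipe*, and *Lipe* is also a gene that fat cells express strongly.

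Fat tissue attached to a ventricle would carry *Lipe*, *Plin4*, *Dgat2* and *G0s2* with it, so the 10 adipocyte markers were examined. Of these, 9 missed the filter on low counts, among them *Adipoq* with at most 14 counts, *Retn* with at most 8 and *Plin1* with at most 1, and *Car3* passed it with 20 to 110 counts. Their summed TPM was 0.31 to 1.36 in control mice and 0.12 to 0.74 in HFD+mTAC mice (two-sided exact permutation test, p = 0.159), a sum that rests on very few counts. In the same test p was 0.0476 without control mouse TT-585, the lowest control mouse. With any other single mouse left out, p in that test was 0.127 to 0.317. The part of attached fat in the values of the 10 genes was not tested. Of 4 brown fat markers, *Ucp1*, the defining one, was at 0 counts in every mouse and *Elovl3* at no more than 3 counts. The other 2 were *Cidea*, which is also a droplet protein, and *Cox8b*, a cytochrome oxidase subunit that heart muscle expresses too. *Cidea* had 424 to 858 counts and was higher in CPM in every HFD+mTAC mouse than in every control mouse (log2 fold change 0.39, adjusted p = 0.284 in edgeR's test). In TPM its groups overlapped, with 2.05 to 5.31 TPM in control mice and 2.53 to 4.26 TPM in HFD+mTAC mice. *Cox8b* had 4929 to 10620 counts and a log2 fold change of -0.20 (adjusted p = 0.812 in edgeR's test).

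Across mice, control mouse TT-587 was the lowest control mouse for 6 of the 10 genes, namely *Plin2*, *Plin3*, *Plin4*, *Plin5*, *Abhd5* and *Dgat2*. It was also the lowest control mouse for 31.3% of the 6486 genes tested whose mean CPM lay between those of the lowest and the highest of the 10 genes, more than any other control mouse, and it had the fewest counts of all mice. The coefficient of variation of the 10 genes ran from 7.61% for *Pnpla2* to 25.9% for *Lipe* in control mice and from 4.01% for *Plin5* to 24.3% for *G0s2* in HFD+mTAC mice. The median over the 6486 genes was 11.1% in control mice and 12.02% in HFD+mTAC mice.

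Levels can be compared between genes only per length. TPM divides counts by an effective transcript length that the authors' quantification estimated anew in each mouse. By median TPM over the 10 mice the order was *Pnpla2* (57.7), *G0s2* (36.0), *Dgat2* (20.3), *Plin2* (8.74), *Plin5* (7.84), *Dgat1* (5.58), *Abhd5* (3.83), *Plin3* (3.12), *Plin4* (1.93) and *Lipe* (1.17). Among neighbours in this order, the ranges over mice separated for *G0s2* and *Dgat2* and overlapped for each other pair. Division by the longest annotated coding transcript instead gave *Pnpla2* (230 CPM per kilobase), *Dgat2* (162), *Plin5* (76.4), *G0s2* (73.8), *Plin3* (48.7), *Plin2* (38.2), *Plin4* (27.5), *Abhd5* (21.004), *Dgat1* (10.4) and *Lipe* (6.03). There the ranges of *Dgat2* and *Plin5*, of *Abhd5* and *Dgat1* and of *Dgat1* and *Lipe* separated.

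The difference between the scales lies in the lengths. For *G0s2* the deposited effective length was 251 to 271 bases against an annotated 871, and for *Dgat1* it was 455 to 631 against 1888. For *Plin3* it was 7023 to 8804 against 3645, and for *Plin4* 9743 to 13309 against 5756. The annotated lengths are from GENCODE M21, which need not be the annotation behind the deposited lengths. The authors' quantification also corrected for sequence, GC and position bias. What part the annotation or these corrections have in the gap between the lengths, and so in the order of genes, was not tested. In these data TPM places *G0s2* higher, and *Plin3* lower, than the annotated lengths do.

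The deposited length also varied between mice of the same tissue. For *Pnpla2* it was 1740, 1618, 1336, 665 and 1681 bases in controls TT-583 to TT-587 and 630, 1564, 1640, 1618 and 681 bases in the HFD+mTAC hearts TT-588 to TT-592. The short values in 1 control and 2 HFD+mTAC mice went with TPM values of 112, 156 and 172 there, against 43.5 to 65.4 TPM in the other 7 mice, while the CPM of these 3 mice was 527, 636 and 685. The ratio of longest to shortest was 2.76 for *Pnpla2*, 2.63 for *Plin2* and 3.06 for *Abhd5*, larger than in 82.5%, 81.1% and 84.7% of the genes tested, whose median ratio was 1.42.

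For *Plin2* the shortest lengths were in the HFD+mTAC mice TT-588 (734 bases) and TT-592 (770 bases), against 1068 to 1927 bases in the other 8 mice. For *Abhd5* the length was 4585, 1778, 4571, 4034 and 2957 bases in the control mice and 1498, 2019, 2114, 2328 and 2168 bases in the HFD+mTAC mice, so that control mouse TT-584 alone lay in the range of the HFD+mTAC mice. On log2(TPM + 1), limma gave a log2 fold change of 0.59 for *Pnpla2*, 0.64 for *Plin2* and 0.84 for *Abhd5*. With the lengths as an offset in edgeR these were 0.57, 0.68 and 0.77. The adjusted p in those fits was 0.593 to 0.809 for these genes, and the differences on counts were 0.28, 0.25 and 0.04.

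**Figure D2:**
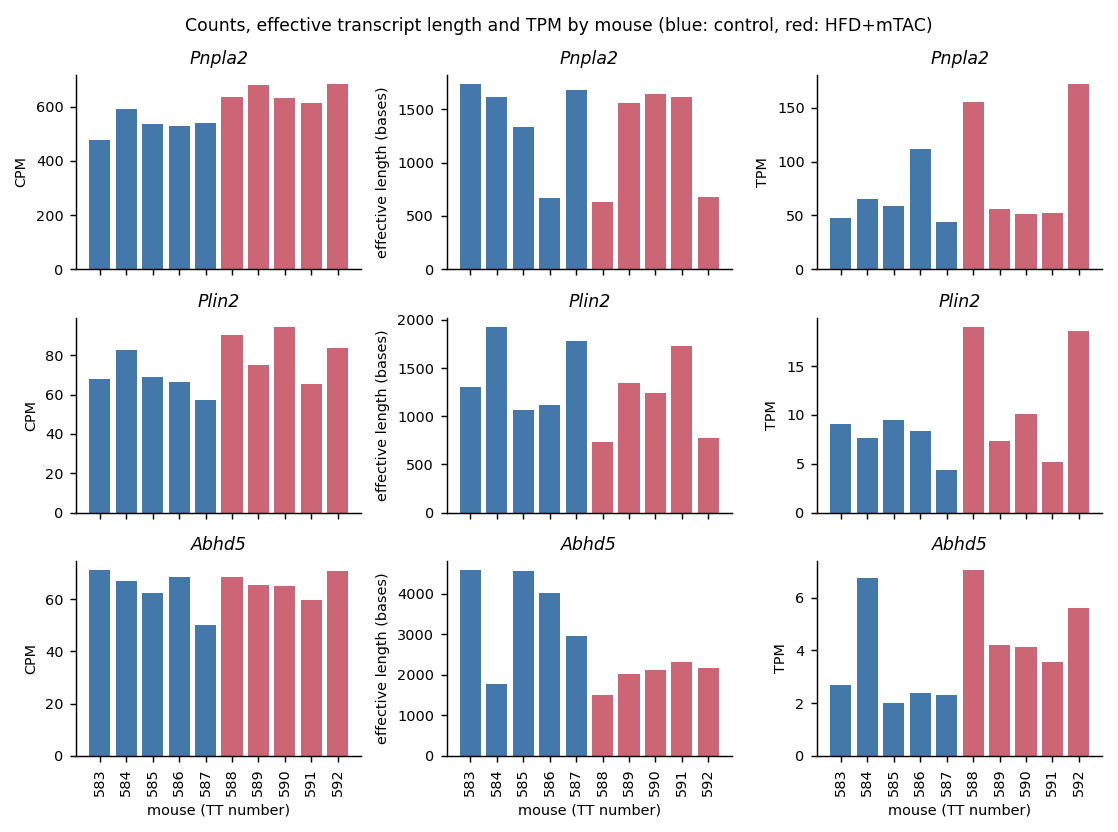
CPM, effective transcript length in bases and TPM (vertical axes from 0) of *Pnpla2*, *Plin2* and *Abhd5* in each control mouse (blue) and HFD+mTAC mouse (red), each bar 1 mouse. *Pnpla2* is shortest in mice TT-586, TT-588 and TT-592 (665, 630 and 681 bases), the mice with its highest TPM (112, 156 and 172).

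**Figure D3:**
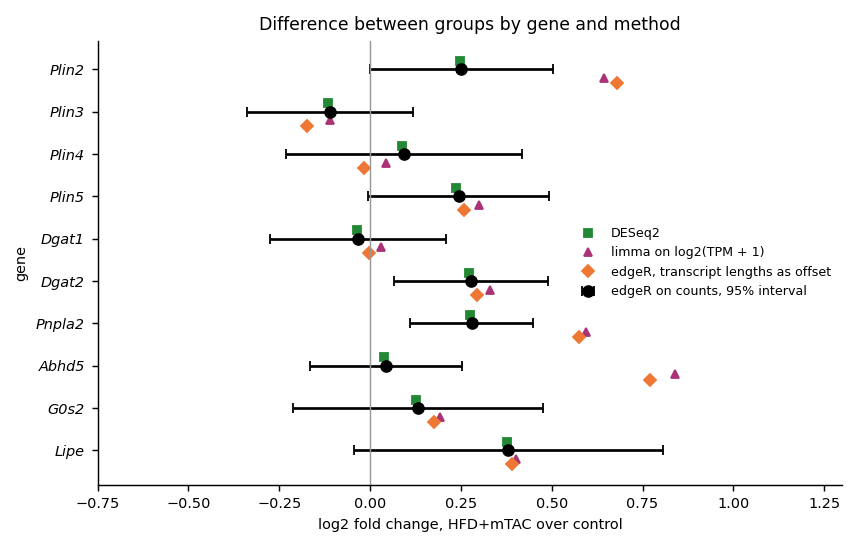
Log2 fold change, HFD+mTAC over control, of the 10 genes by edgeR on counts (black, bars are the 95% interval), DESeq2 (green), limma on log2(TPM + 1) (purple) and edgeR with transcript lengths as offset (orange). *Plin2*, *Pnpla2* and *Abhd5* move to 0.57 or more in both fits that use lengths, and the other 7 stay within the edgeR interval.

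The makeup of the droplet coat was described by the share of each perilipin in the summed level of *Plin1* to *Plin5* in a mouse. For CPM per kilobase of annotated transcript the sum left out *Plin1*. In TPM, *Plin2* took 28.6 to 44.1% in control mice and 30.7 to 58.9% in HFD+mTAC mice, and *Plin5* took 33.4 to 38.4% and 25.4 to 42.2%. *Plin3* took 14.4 to 20.9% and 10.5 to 16.1%, and *Plin4* took 6.94 to 12.1% and 5.23 to 11.03%. All 4 shares overlapped between the groups. In CPM per kilobase of annotated transcript, a scale added after the lengths had been seen, *Plin3* took 28.8, 28.6, 27.5, 27.9 and 29.3% in controls TT-583 to TT-587 and 24.4, 24.6, 21.7, 24.3 and 24.8% in the HFD+mTAC hearts TT-588 to TT-592. On that scale its share was lower in every HFD+mTAC mouse than in every control mouse. *Plin5* took 34.6 to 39.0% and 38.8 to 41.0%, *Plin2* 18.5 to 21.9% and 18.8 to 25.2% and *Plin4* 12.6 to 15.1% and 11.05 to 16.1%, all with overlap. No test was made of the shares.

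**Figure D4:**
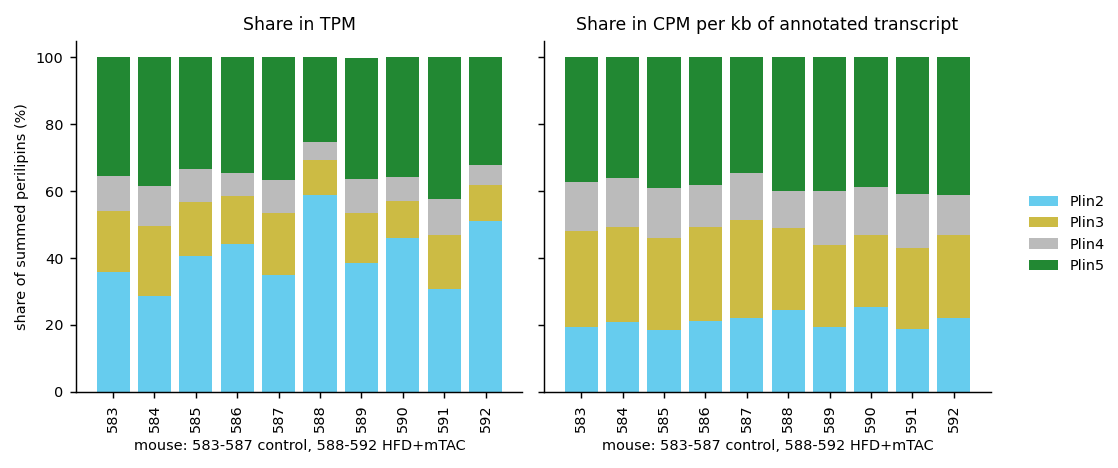
Share (percent, vertical axis) of *Plin2*, *Plin3*, *Plin4* and *Plin5* in the summed perilipin level of each mouse, in TPM (left) and in CPM per kilobase of annotated transcript (right). On the right, *Plin3* takes 27.5 to 29.3% in controls TT-583 to TT-587 and 21.7 to 24.8% in the HFD+mTAC hearts TT-588 to TT-592. On the left, its shares overlap, at 14.4 to 20.9% in control mice and 10.5 to 16.1% in HFD+mTAC mice.

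The balance of inhibitor and lipase was described in the same way. The TPM ratio of *G0s2* to *Pnpla2* was 0.61 ± 0.18 (SD, n = 5) in control hearts and 0.51 ± 0.28 (SD, n = 5) in HFD+mTAC hearts, and that of *Abhd5* to *Pnpla2* was 0.0535 ± 0.0311 (SD, n = 5) and 0.0600 ± 0.0203 (SD, n = 5). In CPM per kilobase the former was 0.34 ± 0.043 (SD, n = 5) and 0.31 ± 0.085 (SD, n = 5), and the latter was 0.09997 ± 0.0173 (SD, n = 5) and 0.0844 ± 0.00383 (SD, n = 5). Both ratios overlapped between the groups on both scales, and that of *Abhd5* to *Pnpla2* changed direction between them. Single mice carried much of the gap in TPM. The mean log2 ratio of *G0s2* to *Pnpla2* was -0.40 in HFD+mTAC relative to control mice, -0.08 without HFD+mTAC mouse TT-592 and -0.65 without TT-591, and it was -0.18 in CPM per kilobase. For *Abhd5* to *Pnpla2* the difference in TPM was 0.28, and it was 0.57 without control mouse TT-584 and close to 0 without control mouse TT-586.

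Other genes of the pathway were read out of the same test in 4 lists. Over all genes tested, 8.27% had an unadjusted p under 0.05 in edgeR's test and 1.96% had groups that did not overlap in CPM. Of 16 genes that make the precursors of the DGAT step, 12 were tested, none was called by edgeR, DESeq2 or limma and 2 had an unadjusted p under 0.05 in edgeR's test, while 8 were higher and 4 lower by value with a median log2 fold change of 0.16. *Agpat2*, which makes phosphatidic acid, was at 60.2 ± 5.19 CPM (SD, n = 5) in control hearts and 75.9 ± 12.4 CPM (SD, n = 5) in HFD+mTAC hearts (log2 fold change 0.33, adjusted p = 0.402), and *Gpat3* (*Agpat9* in the tables), an acyltransferase of the first step, was at 22.2 ± 1.86 and 27.1 ± 5.22 CPM (SD, n = 5; log2 fold change 0.29, adjusted p = 0.60). The lower genes with the smallest p were *Lpin1*, a phosphatidic acid phosphatase (log2 fold change -0.19, adjusted p = 0.86), and *Agpat5* (log2 fold change -0.08, adjusted p = 0.879). *Gpam*, the mitochondrial acyltransferase of the first step, was listed at 0 to 1.44 counts and was not tested.

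Of 16 genes of droplet formation and other droplet proteins, 13 were tested, of which 5 were higher and 8 lower by value with a median log2 fold change of -0.007. None was called by edgeR or limma, and DESeq2, which called 0.888% of all genes, called *Hsd17b11* (adjusted p = 0.00491). In edgeR's test 2 had an unadjusted p under 0.05, against 8.27% of all genes. The groups did not overlap for these 2, against 1.96% of all genes. *Hsd17b11*, a droplet-bound dehydrogenase, was at 45.2 ± 3.20 CPM (SD, n = 5) in control hearts and 63.2 ± 8.12 CPM (SD, n = 5) in HFD+mTAC hearts (log2 fold change 0.48, adjusted p = 0.142). *Cidea*, which transfers lipid between droplets, was at 38.9 ± 5.43 and 50.9 ± 4.22 CPM (SD, n = 5; log2 fold change 0.39, adjusted p = 0.284). *Tmem159*, which marks sites of droplet formation with seipin, and *Mettl7a1*, a droplet-bound protein, were lower by value, with log2 fold changes of -0.23 (adjusted p = 0.628) and -0.11 (adjusted p = 0.778).

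Of 14 other lipases and lipolysis regulators, 11 were tested, none was called by edgeR, DESeq2 or limma and 1 had an unadjusted p under 0.05, with 8 higher and 3 lower by value and a median log2 fold change of 0.05. *Lipa*, the acid lipase of the lysosome, had a fitted log2 change of 0.32 (standard error 0.13, adjusted p = 0.524 in edgeR's test), and *Atg2b*, a lipid transfer protein of autophagy, 0.43 (standard error 0.36, adjusted p = 0.819). *Abhd12*, a monoglyceride and lysophospholipid hydrolase, had -0.11 (adjusted p = 0.808) and *Hilpda*, an inhibitor of ATGL, -0.10 (adjusted p = 0.947).

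Of 12 genes of the cyclic AMP control of lipolysis, 10 were tested, none was called by edgeR, DESeq2 or limma and 1 had an unadjusted p under 0.05, with 4 higher and 6 lower by value and a median log2 fold change of -0.006. That gene, *Adora1*, the adenosine receptor that lowers cyclic AMP, was at 11.4 ± 1.65 CPM (SD, n = 5) in control hearts and 16.2 ± 2.57 CPM (SD, n = 5) in HFD+mTAC hearts. In CPM its groups did not overlap, against 1.96% of all genes, and its log2 fold change was 0.51 (adjusted p = 0.294 in edgeR's test). In TPM its groups overlapped, with 0.17 to 0.32 TPM in control mice and 0.24 to 0.47 TPM in HFD+mTAC mice. *Prkacb*, a catalytic subunit of protein kinase A, had a log2 fold change of 0.17 (adjusted p = 0.691), *Prkar1a*, a regulatory subunit, -0.16 (adjusted p = 0.789) and *Pde3b*, which degrades cyclic AMP, -0.13 (adjusted p = 0.879).

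**Figure D5:**
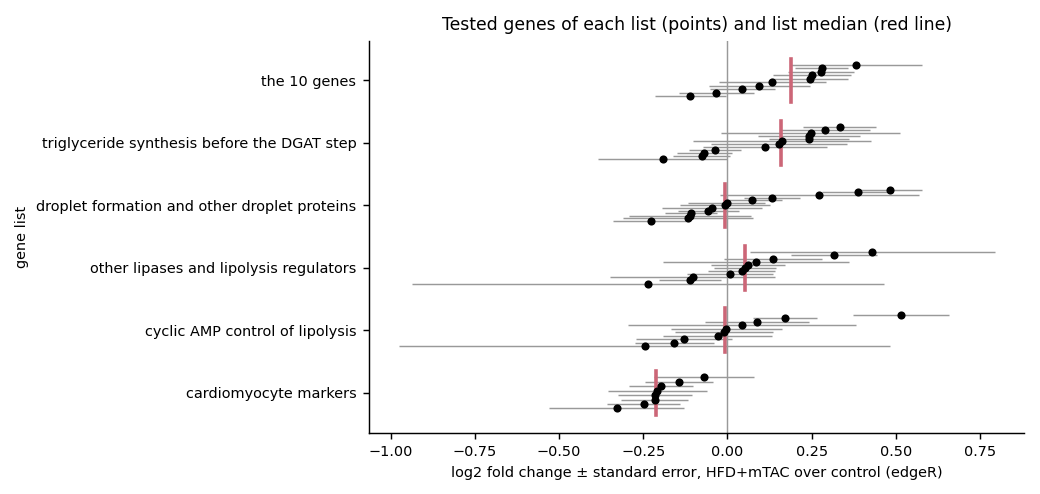
Log2 fold change ± standard error, HFD+mTAC over control, of each tested gene (points) of the 10 genes, the 4 pathway lists and the cardiomyocyte markers, with each list's median as a red line. The medians are 0.19 for the 10 genes, 0.16 for triglyceride synthesis before the DGAT step and -0.21 for cardiomyocyte markers, and none of the genes shown was called by edgeR.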

How the data were processed

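Polyadenylated RNA of 10 left ventricles was sequenced with a stranded kit. Per the study's methods, reads were quantified by Salmon 1.6.0 with corrections for sequence, GC and position bias and summed to genes with tximport. The submitters' processing notes name the build hg38, which is human, whereas the tables hold mouse symbols and the study's methods give GRCm38. The authors deposited expected counts per gene without normalization (20.07% of them not whole), TPM values, and average effective transcript lengths in bases. TPM equals counts over length, scaled in each mouse, within a relative difference of 0.000507 for genes over 1 TPM. Depth is given with the results. No values were left unmapped to a mouse. Neither a batch nor a pairing is labelled, and each mouse has a number of its own.

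Expected counts were rounded and tested with edgeR 4.0.16 (R 4.3.3; TMM normalization, quasi-likelihood test, two-sided, Benjamini-Hochberg adjustment) over 13296 protein-coding genes outside the mitochondrial genome with at least 1 count in at least 9 of 10 mice. CPM are these normalised counts. Standard errors were derived as the absolute log2 fold change over the square root of the test's F statistic. The 95% intervals use these standard errors and a t distribution. Positions, biotypes and annotated lengths are from GENCODE M21 (27862 symbols matched directly, 864 by an older symbol, 838 not). With all 10 mice, single values were compared by exact permutation over 252 arrangements, of which the smallest two-sided p is 0.00794. With 1 mouse left out there are fewer arrangements and the smallest p is larger. Alternatives were DESeq2 1.42.0, limma 3.58.1 on log2(TPM + 1) or log2(TPM + 0.1), other scalings and filters, lengths as an offset, and the omission of each mouse. The CPM per kilobase scale was added after the lengths were seen. The main edgeR fit, DESeq2 and limma on log2(TPM + 1) were also run on counts simulated with a common dispersion. The other alternatives were not run there.

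The genes, gene lists and marker lists were chosen with earlier results of these data known. Of each list, the text names genes with an adjusted p under 0.05 and the 2 higher and 2 lower ones with the smallest unadjusted p.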

Additional observations from a re-analysis of the deposited data

Results flagged for a closer look

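Among the 5 mice of a group, a mouse was singled out when its gap to the nearest other mouse exceeded 0.71 of the range of the group, which chance does for about 1 in 20 groups. Of 40 groups examined (the 10 genes in each group, in CPM and in TPM), 4 held such a mouse, all in TPM and none in CPM. HFD+mTAC mouse TT-592 was at 11.7 TPM for *Plin5*, with 6.86 to 8.18 TPM in the other 4 mice, and at 8.21 TPM for *Dgat1*, with 4.69 to 5.56 TPM in the other 4. Control mouse TT-584 was at 6.74 TPM for *Abhd5*, with 2.01 to 2.69 TPM in the other 4, and was also the control mouse with the shortest effective length for that gene. Control mouse TT-587 was at 12.98 TPM for *Dgat2*, below the other 4 at 19.4 to 20.9 TPM, and had the longest effective length for that gene among control mice (3078 bases). Among HFD+mTAC mice, TT-592 had the shortest effective length for *Plin5* (2384 bases) and for *Dgat1* (476 bases). The part of length in these TPM values was not tested.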

How the results depend on the processing

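No paired analysis was possible because the labels give every mouse its own number and no number is shared between the groups. Of 200 log2 fold changes of the 10 genes under 20 other settings, 194 kept their direction with an adjusted p above 0.05, 5 changed sign and 1 passed the threshold. That 1 was *Pnpla2* with DESeq2, so that 1 of the 10 genes was called in place of 0. The sign changed for *Dgat1* with limma on log2(TPM + 1) and log2(TPM + 0.1) (0.0295 and 0.0301) and without control mouse TT-587 (0.0343, lowest -0.0838 with 1 mouse left out), for *Abhd5* without control mouse TT-587 (-0.0299, highest 0.0856 with 1 mouse left out) and for *Plin4* with lengths as an offset (-0.0163). The count over all genes was 8 with edgeR, 118 with DESeq2, 1 with limma at either pseudocount, 1 with lengths as an offset and 1 to 9 with 1 mouse left out, and it was 1 without control mouse TT-584, TT-586 or TT-587 or HFD+mTAC mouse TT-588, TT-590 or TT-592, 2 without control mouse TT-585 and 3 without HFD+mTAC mouse TT-589. The cause of these differences was not tested. The median log2 fold change of all genes stayed between -0.0044 and 0.0325 under every setting. With 5 mice a group, the 95% intervals of the 10 genes reach from 0.169 (*Pnpla2*) to 0.425 (*Lipe*) on either side of the fitted log2 fold change, and intervals on counts cover the spread of these mice only.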
